A study of Rattus norvegicus with 224 samples.

Results

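The arrays described here compared insulin with its vehicle in rat aortic smooth muscle cells kept in 25 mM glucose for 24 h after the stimulus. They were chosen by their titles, as every insulin array and every vehicle array at this glucose level and hour, and made up 56 of the 224 arrays of the series, 28 for each arm. The cells were explanted from the aortas of 1-day-old rat pups and used at passage 8 to 11. The insulin arm received 100 nM insulin and the vehicle arm received the saline vehicle. Within each arm the cells then received DMSO or 1 of 6 drug doses, which were 0.01, 1 and 100 ng/mL for rapamycin and 0.01, 1 and 1000 ng/mL for paclitaxel. Each of these 7 drug conditions was sampled once in each of 4 replicate runs, A to D, so that every insulin array had a vehicle partner of the same drug dose and run. Every array also carried reference RNA from pools of rat pups in the other dye. Nothing in the labels says whether the runs were separate explants or cultures, so the tests measure the spread between these arrays.

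Insulin binds its receptor, or at high concentration the related IGF-1 receptor, and signals through IRS proteins, PI3-kinase and AKT. AKT signalling activates mTORC1, keeps FOXO transcription factors out of the nucleus and raises the activity of the SREBP factors, which drive genes of sterol and fatty acid synthesis. Vascular smooth muscle cells in culture divide, secrete collagens and other matrix proteins, and make matrix Gla protein, an inhibitor of arterial calcification. Rapamycin inhibits mTORC1, which lies on this pathway, and paclitaxel stabilises microtubules. Receptor genes Insr and Igf1r were not among the features analysed here.

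The deposited values are standardized scores with mean 0 and SD 1 on each array, so a difference below is a number of array SDs and not a fold change. Features were also nearly centred over the series, which means that a score compares arrays for 1 gene and does not show how abundant a transcript is, and the cell type could not be checked from the level of its markers. Of 6 measured smooth muscle markers, 0 were called in either direction, and their summed score ran from -14.1 to 4.03 over the insulin arrays and from -17.5 to 6.09 over the vehicle arrays. The markers of endothelial cells, leukocytes, adventitial fibroblasts, cartilage and bone cells, neurons and Schwann cells, and adipocytes likewise had 0 calls among 4 to 8 measured genes each. Over all features 0.501% were called, and at that share marker lists of this size would hold few or no calls. In cultures measured in bulk, fewer cells of a type and less RNA per cell cannot be told apart. Of the compared arrays, 3 stood apart, all of run B: insulin in DMSO, vehicle with 0.01 ng/mL paclitaxel and vehicle with 1000 ng/mL paclitaxel. Their scores correlated at -0.15, -0.0896 and -0.0548 with the mean 24 h minus 6 h difference of the other arrays, below 0 where other 24 h arrays reached 0.469. The 6 h arrays ran from -0.478 to 0.239, so this measure overlapped between the hours.

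Few features passed the threshold for a difference with insulin, and their count depended on the runs used. Of 11575 features tested, 58 passed an adjusted p under 0.05 (limma, Benjamini-Hochberg), which is 0.501% of them, and 83 passed without the 3 arrays that stood apart. A set of 36 features was higher with insulin (0.311%) and 22 were lower (0.19%). These features belonged to 27 genes that rose and 14 that fell, and 13 of them had no gene symbol. Matrix Gla protein fell most, and the genes that rose included a sterol reductase, an acyl-CoA binding protein, fibrillar collagens, a lysophosphatidic acid receptor and subunits of the respiratory chain. The absolute differences of the called features lay between 0.63 and 2.17 array SDs, with a median standard error of 0.216 over all features. The arms overlapped in every one of the 58, as they did in all 11575 features. Across the 28 matched pairs, the features called higher were higher with insulin in 19 to 25 pairs, and those called lower were lower in 18 to 23. At an unadjusted p under 0.05 there were 1076 features, 537 higher and 539 lower. With no effect at all, a share of about 0.05 of the features would fall under this threshold. Unadjusted counts here and below are to be read beside that share.

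The 4 runs did not carry this in equal measure. In runs A and C all 58 features differed in the called direction, with median sizes of 1.67 and 1.93 array SDs. In run B 50 of the 58 did so, with a median of 0.488, and in run D 35 did so, with a median of 0.0921. The called set is a mean over all 4 runs, and these run values describe it. Without run A the same limma fit called 0 features, with 516 at an unadjusted p under 0.05. That is below the share of 0.05 expected with no effect. Without run C the fit also called 0, with 632 unadjusted, close to that share. By contrast, 144 features were called without run B and 180 without run D. With the run as the unit, 4 differences against 0, limma called 0 features and 763 were under 0.05 unadjusted. A limma F test of the insulin effect among the runs, added after the values were seen, called 23 features (0.199%), 9 of them among the 58. The authors removed components linked to the runs before deposition, and the part of this step in the run differences was not tested.

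**Figure D1:**
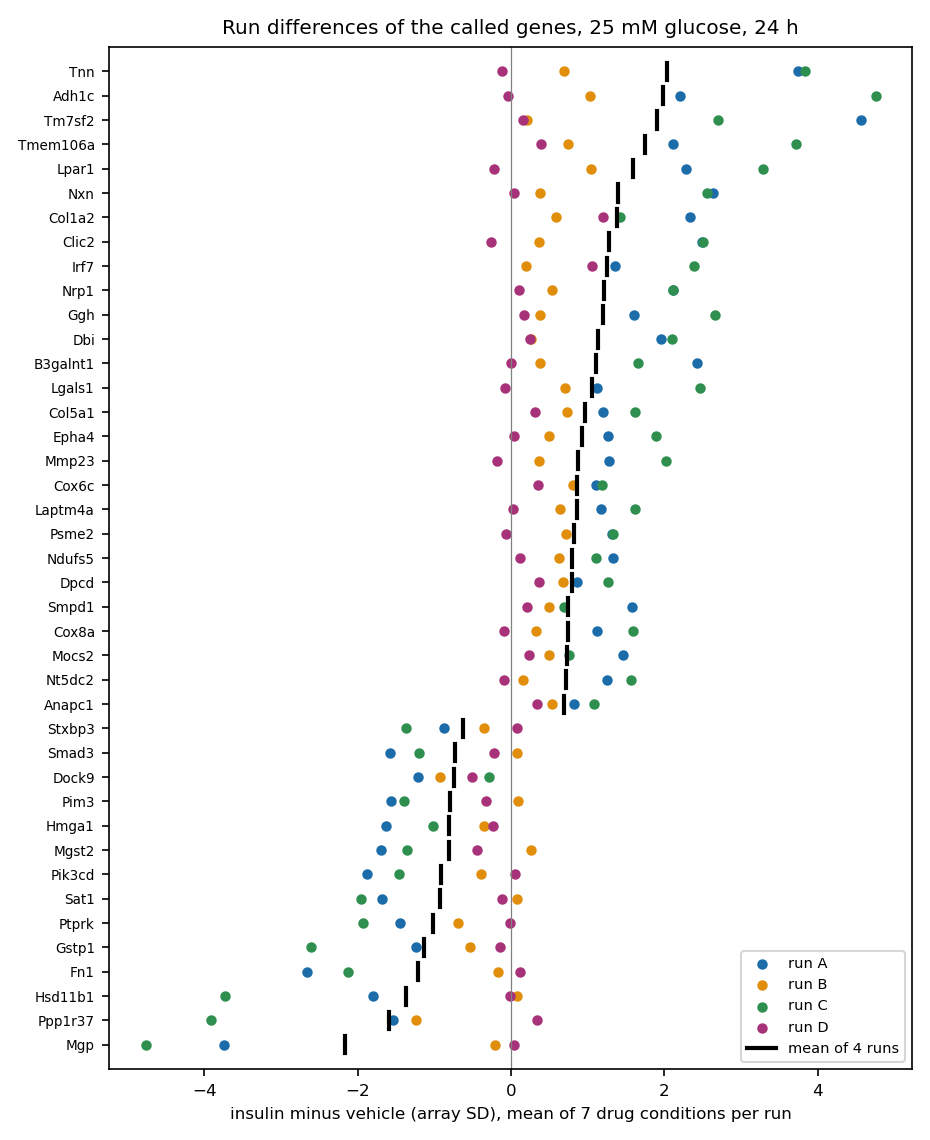
Difference between insulin and vehicle for each gene called at 25 mM glucose and 24 h, 1 row per gene. Each point is 1 run (mean of 7 drug conditions) and the black bar is the mean of the 4 runs, in array SDs. Runs A and C lie on the called side for all genes, whereas runs B and D lie close to 0 for many.

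Sterol synthesis supplied the called gene with the largest rise shared by all 4 runs. Tm7sf2, a sterol reductase of the cholesterol pathway, had scores of -1.30 at the lowest, 0.972 at the median and 5.44 at the highest with insulin, against -5.14, -0.486 and 2.10 with vehicle. The insulin arm was shifted upward, and the arms overlapped. The difference was 1.90 ± 0.382 (SE, n = 28 arrays per arm, adjusted p = 0.00356 by limma), and it was positive in 21 of 28 pairs. By run it was 4.56 in run A, 0.203 in run B, 2.70 in run C and 0.152 in run D, so its sign was shared and its size was not. The F test among runs gave it an adjusted p of 0.0218. By drug condition it was 1.23 to 1.99 in the 6 drug doses and 3.50 ± 1.01 (SE) in DMSO.

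The promoters of Tm7sf2, of Acat2, which joins the first acetyl units of the pathway, and of Idi1 and Mvd, which make the isoprene units that sterols are built from, are shown because most genes of this pathway had positive differences. They were chosen after the values were seen. That of Mmp23 is shown because it is the gene called higher whose promoter held the sterol response element searched for. Each runs 5′ to 3′ on the gene's own strand, from 250 bases before the start to 50 after it, in RefSeq's annotation of the GRCr8 build. Capitals mark the CCAAT box, or its reverse complement ATTGG, in the sterol promoters and the element TCACNCCAC in that of Mmp23. Tm7sf2, Idi1 and Mvd each held 2 CCAAT boxes and Acat2 held 0. The first promoter is at chr1:212789492-212789791, minus strand.
Tm7sf2: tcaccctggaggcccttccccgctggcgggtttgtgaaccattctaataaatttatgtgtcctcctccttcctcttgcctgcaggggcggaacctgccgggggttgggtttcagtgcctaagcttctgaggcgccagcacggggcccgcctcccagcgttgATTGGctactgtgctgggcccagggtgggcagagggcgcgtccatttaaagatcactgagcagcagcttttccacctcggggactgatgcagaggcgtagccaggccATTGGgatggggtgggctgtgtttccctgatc
The Acat2 promoter is at chr1:50100590-50100889, plus strand.
Acat2: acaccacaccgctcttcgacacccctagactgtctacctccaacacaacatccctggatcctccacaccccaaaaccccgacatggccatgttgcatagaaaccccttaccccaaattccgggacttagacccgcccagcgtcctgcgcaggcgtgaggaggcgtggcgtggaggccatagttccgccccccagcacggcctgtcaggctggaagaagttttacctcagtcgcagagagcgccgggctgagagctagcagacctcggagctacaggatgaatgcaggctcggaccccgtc
The Idi1 promoter is at chr17:66547475-66547774, minus strand.
Idi1: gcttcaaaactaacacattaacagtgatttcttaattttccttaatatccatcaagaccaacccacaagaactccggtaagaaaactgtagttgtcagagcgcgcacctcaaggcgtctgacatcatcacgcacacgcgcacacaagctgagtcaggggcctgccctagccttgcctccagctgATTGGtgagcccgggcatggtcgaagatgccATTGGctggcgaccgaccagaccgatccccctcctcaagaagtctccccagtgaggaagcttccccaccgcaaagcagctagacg
The Mvd promoter is at chr19:67414925-67415224, minus strand.
Mvd: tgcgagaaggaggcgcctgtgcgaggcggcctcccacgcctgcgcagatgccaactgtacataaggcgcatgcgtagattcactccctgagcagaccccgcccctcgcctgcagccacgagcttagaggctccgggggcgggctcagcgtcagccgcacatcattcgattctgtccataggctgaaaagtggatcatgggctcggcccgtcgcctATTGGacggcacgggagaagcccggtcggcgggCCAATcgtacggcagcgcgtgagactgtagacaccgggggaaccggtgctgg
The Mmp23 promoter, whose gene encodes a matrix metalloproteinase, is at chr5:171524485-171524784, minus strand.
Mmp23: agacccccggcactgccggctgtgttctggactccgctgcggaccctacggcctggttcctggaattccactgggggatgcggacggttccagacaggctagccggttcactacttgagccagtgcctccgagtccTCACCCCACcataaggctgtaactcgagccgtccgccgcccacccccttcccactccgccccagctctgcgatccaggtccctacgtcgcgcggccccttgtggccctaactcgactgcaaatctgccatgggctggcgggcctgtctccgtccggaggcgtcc
All motifs were searched on both strands in windows of 300 bases. The element TCACNCCAC occurred in 1 of 21 promoters of genes called higher (4.76%), in 0 of 8 called lower and in 0 of 12 promoters of the sterol list, against 1.27% of the 5371 promoters of measured genes. The FOXO motif TGTTTAC occurred in 1 of 21 (Psme2), 0 of 8 and 0 of 12, against 2.36%. The E-box CACGTG occurred in 0 of 21, 0 of 8 and 2 of 12 (Insig1 and Sc5d), against 9.51%. The CCAAT box, a site of the factor NF-Y and added after the values were seen, occurred in 11 of 21, 3 of 8 and 10 of 12 (83.3%), against 38.4%. A match describes the letters in the window and is no evidence of binding.

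Of 25 listed genes of sterol synthesis and uptake, 16 were measured, and Tm7sf2 was the only one called, against 0.501% of all features. Of the 16 differences 14 were positive, with a median of 0.478 array SDs, whereas over all 6502 genes 50.3% were positive and the median was 0.00116. Under 0.05 without adjustment were 7 members, all positive. Idi1 had a mean score of -0.198 ± 1.71 with insulin and -1.19 ± 2.38 with vehicle (SD, n = 28 each), a difference of 0.989 ± 0.468 (SE, adjusted p = 0.470). Sqle, the squalene epoxidase, stood at 0.933 ± 0.408 (adjusted p = 0.400) and Acat2 at 0.839 ± 0.365 (adjusted p = 0.398). The median of the list was 0.507 at 5 mM glucose and 24 h and 0.496 at 25 mM glucose and 6 h. The run medians of the list at 25 mM and 24 h were 1.55 in run A, -0.0186 in run B, 0.489 in run C and 0.196 in run D. Run A thus held the high values for most of the pathway, as the plot of its members shows. Insig1, which holds SREBP precursors in the endoplasmic reticulum, went the other way at -0.481 ± 0.341 (adjusted p = 0.748). Fatty acid genes had 0 calls among 13 measured, against 0.501% of all features, and a median of 0.0779. Elovl6, a fatty acid elongase, stood furthest from 0 at 1.02 ± 0.329 (adjusted p = 0.152), positive in 21 of 28 pairs, while Fasn stood at -0.0666 and Scd2 at 0.0992.

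**Figure D2:**
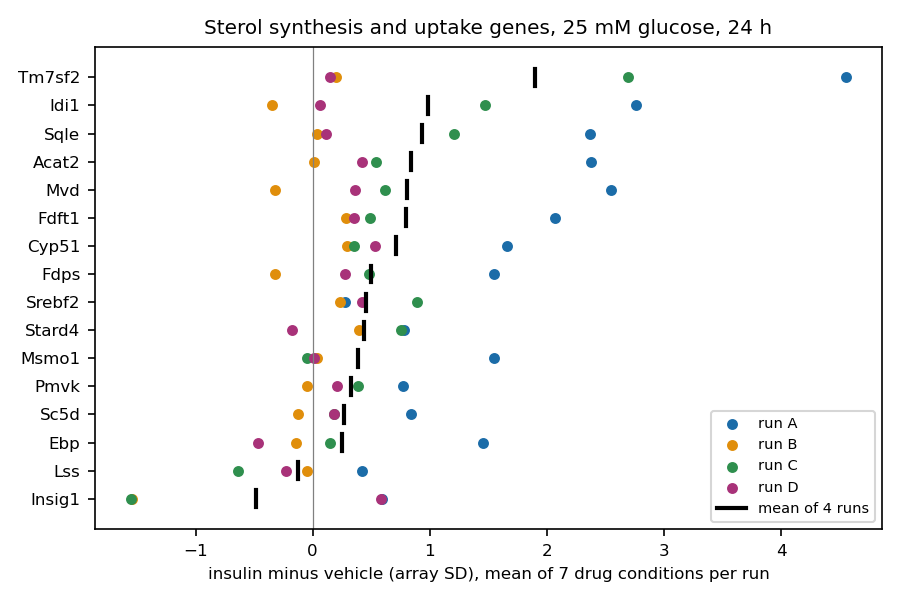
Difference between insulin and vehicle of 16 sterol genes, 1 row per gene, at 25 mM glucose and 24 h. Points are runs (mean of 7 drug conditions) and black bars are means of the 4 runs, in array SDs. Run A (blue) lies furthest to the right for most genes, and Insig1 and Lss have means below 0.

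Dbi, an intracellular carrier of acyl-CoA esters, rose by both of its features. The first scored -2.23 at the lowest, 0.684 at the median and 2.42 at the highest with insulin, against -2.20, -0.424 and 1.30 with vehicle. The 2 features differed by 1.14 ± 0.227 (adjusted p = 0.00356) and 1.02 ± 0.212 (adjusted p = 0.00454; SE, n = 28 per arm, limma). The first was positive in all 4 runs, from 0.246 to 2.09, and the second lay at -0.0766 in run D. Smpd1, the acid sphingomyelinase of lysosomes, differed by 0.738 ± 0.184 (adjusted p = 0.0303), while a second feature of it stood at 0.0493. Laptm4a, a lysosomal membrane protein, differed by 0.861 ± 0.211 (adjusted p = 0.0286), with -0.261 in the DMSO condition. Lysosome and autophagy genes as a list had 0 calls among 32 measured genes, against 0.501% of all features.

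The matrix genes moved both ways. Matrix Gla protein (Mgp) scored -4.76 at the lowest, -1.62 at the median and 3.37 at the highest with insulin, against -0.48, 1.20 and 4.34 with vehicle. Its difference was -2.17 ± 0.410 (SE, n = 28 per arm, adjusted p = 0.00136, limma), and it was lower with insulin in 20 of 28 pairs. In run A the insulin arrays lay between -3.91 and -1.80 and the vehicle arrays between -0.256 and 2.11. In run C they lay between -4.76 and -1.55 with insulin and between -0.066 and 2.68 with vehicle. Within each of these runs the arms of this feature did not overlap. The share of all features whose arms separate within a run was not computed. In run B the medians were 0.567 with insulin and 0.749 with vehicle, and in run D 2.23 with insulin and 1.54 with vehicle, with overlapping arms in both. The run differences were -3.74, -0.215, -4.76 and 0.0339 for runs A to D, and the F test among runs gave an adjusted p of 0.000409. With the run as the unit, limma gave this feature an adjusted p of 0.73. Without run A limma gave 0.804, and without run C 0.784. A second feature of Mgp differed by -1.28 ± 0.313 (adjusted p = 0.0286, limma). Its run differences were -3.03, -0.411, -2.58 and 0.922 for runs A to D. In run A its insulin arrays reached 0.326 and its vehicle arrays began at -0.002. In run C they reached -0.585 and began at -0.605, so the arms of this feature overlapped in both runs. Both features were lower in all 7 drug conditions, the first by -1.16 to -3.08. Mgp, being positive in run D, fell outside the naming rule on 4 equal signs and was named after its values were seen.

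**Figure D3:**
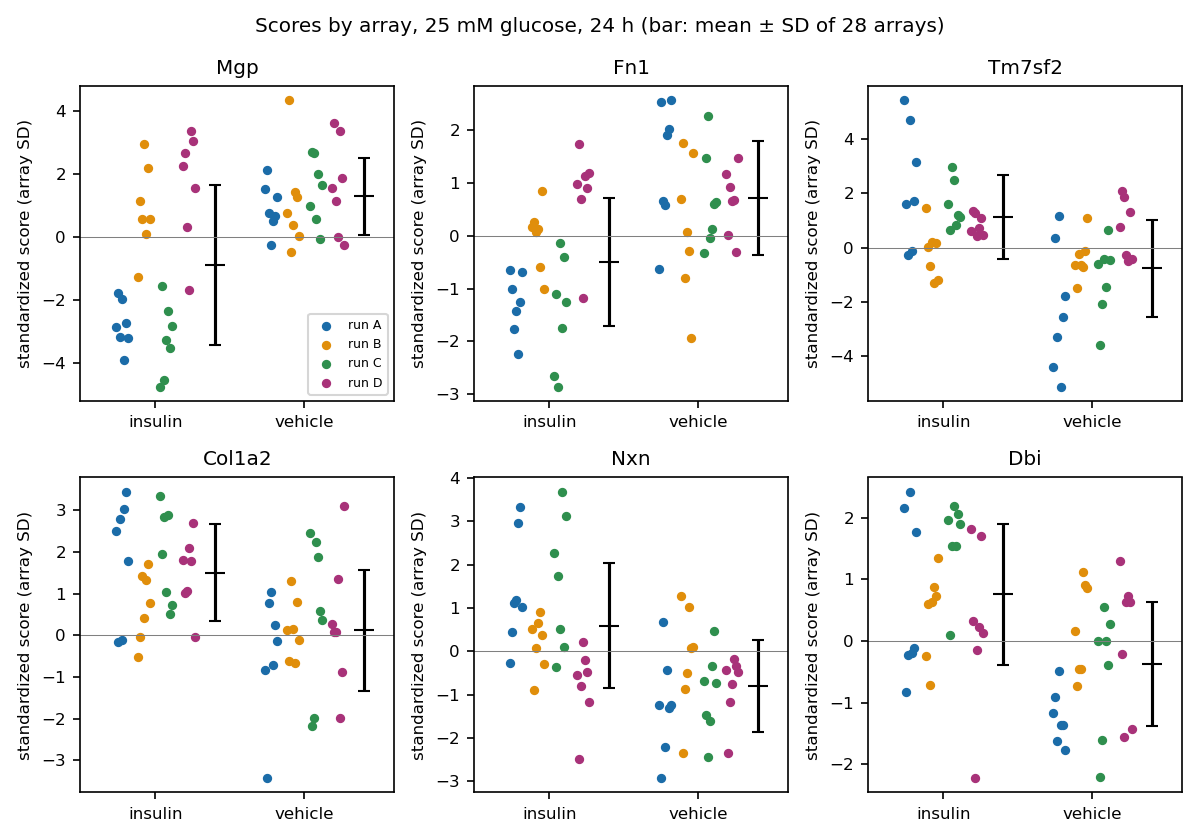
Standardized scores of 6 genes on each array at 25 mM glucose and 24 h, insulin left and vehicle right, coloured by run. Black bars show the mean ± SD of 28 arrays. For Mgp and Fn1 the insulin arrays of runs A and C lie low, those of Fn1 partly within the vehicle range. Most insulin arrays of runs B and D lie among the vehicle arrays. For Mgp, -1.27 in run B and -1.69 in run D lie below every vehicle array. For Tm7sf2 the 2 lowest vehicle arrays are of run A, whose vehicle arrays spread from -5.14 to 1.16.

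Fibronectin (Fn1), which links cells to the matrix, scored -2.85 at the lowest, -0.624 at the median and 1.73 at the highest with insulin, against -1.94, 0.662 and 2.56 with vehicle. It fell, with a difference of -1.21 ± 0.270 (SE, adjusted p = 0.0110, limma), and was lower in 22 of 28 pairs and in all 7 drug conditions. Its run differences were -2.66, -0.175, -2.12 and 0.122 for runs A to D. Among collagens, Col1a2, a chain of type I collagen, scored -0.529 at the lowest, 1.56 at the median and 3.44 at the highest with insulin, against -3.42, 0.142 and 3.11 with vehicle. It rose by 1.38 ± 0.353 (adjusted p = 0.0318) and was higher in 23 of 28 pairs. Its run differences were 2.33, 0.581, 1.42 and 1.20 for runs A to D, and the F test among runs gave an adjusted p of 0.979. Col5a1, a chain of type V collagen, differed by 0.963 ± 0.246 (adjusted p = 0.0318) and was higher in 25 of 28 pairs, although a second feature of it stood at 0.0743. The list of matrix genes and their modifiers had 2 members called higher and 1 lower among 33 measured, with a median of -0.069. Over all features 0.311% were called higher and 0.19% lower. Tnn, a tenascin outside that list, differed by 2.04 ± 0.456 (adjusted p = 0.0111) with -0.121 in run D, and its second feature by 0.841 (adjusted p = 0.313).

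Receptors and signalling proteins at the cell surface were also among the genes that rose. Lpar1, a receptor for lysophosphatidic acid, had differences of 1.60 ± 0.345 (adjusted p = 0.00859) and 1.50 ± 0.397 (adjusted p = 0.0435) by its 2 features, with -0.217 and -0.199 in run D. Nrp1, a co-receptor for semaphorins and VEGF, rose by 1.21 ± 0.310 and 1.15 ± 0.302, with positive values in all 4 runs for both. Epha4, an ephrin receptor, differed by 0.922 ± 0.209 (adjusted p = 0.0125) at 1 feature and by 0.0875 at another. Among genes that fell, Ptprk, a receptor tyrosine phosphatase, differed by -1.02 ± 0.259 (adjusted p = 0.0303), while its second feature stood at 0.111. Dock9, an activator of CDC42, fell by 0.739 array SDs (SE 0.195, adjusted p = 0.0435) and was lower in all 4 runs. Pik3cd, a catalytic subunit of PI3-kinase, differed by -0.919 ± 0.220 (adjusted p = 0.0241) with 0.0510 in run D, and was named after its value was seen. Smad3, which carries TGF-beta signals to the nucleus, differed by -0.729 ± 0.190 at 1 feature and by 0.00334 at the other.

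Genes of mitochondrial respiration were called in 1 direction, higher with insulin. Cox6c, a subunit of cytochrome c oxidase, scored -2.0 at the lowest, 0.650 at the median and 1.78 at the highest with insulin, against -1.82, -0.350 and 1.20 with vehicle. Its difference was 0.864 ± 0.204 (SE, adjusted p = 0.0207), positive in 24 of 28 pairs and in all 7 drug conditions. Cox8a, of the same complex, differed by 0.736 ± 0.160 (adjusted p = 0.00859), with -0.0921 in run D. Ndufs5, a subunit of complex I that was not on the fixed list, differed by 0.793 ± 0.200 (adjusted p = 0.0303). Of 34 measured genes of the respiratory chain and ATP synthase, 2 were called higher and 0 lower, against 0.311% and 0.19% of all features. Of their differences 27 were positive (79.4%, against 50.3% of all genes) and the median was 0.193. The list's run medians were 0.300 in run A, 0.0915 in run B, 0.353 in run C and 0.00557 in run D.

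Redox and steroid enzymes were among the genes that fell. Gstp1, a glutathione transferase, differed by -1.14 ± 0.288 (SE, adjusted p = 0.0303), lower in all 4 runs, and was the only called member of 18 measured NRF2 and redox genes. Over all features 0.501% were called, which is the share to set beside each list named here. Hsd11b1, which regenerates active glucocorticoid, differed by -1.37 ± 0.350 (adjusted p = 0.0318), with -1.80 in run A, -3.73 in run C, 0.0784 in run B and -0.0134 in run D. It was the only called member of 15 measured genes listed as glucocorticoid-induced, whose median was -0.038, and Tsc22d3, another target of glucocorticoids, stood at -0.219 (adjusted p = 0.931). Hmga1, a chromatin protein, differed by -0.807 ± 0.204 (adjusted p = 0.0303) at 1 feature and by -0.0197 at another. Among the remaining genes that rose with 1 sign in all runs, Tmem106a differed by 1.74 ± 0.358 (adjusted p = 0.00454) and Nxn, a nucleoredoxin, by 1.40 ± 0.254 (adjusted p = 0.00136). Irf7, a transcription factor of the interferon response, differed by 1.25 ± 0.273 (adjusted p = 0.00859), with 1.05 in run D and -0.0568 in the DMSO condition. Psme2, an interferon-induced proteasome activator, differed by 0.824 ± 0.173 (adjusted p = 0.00525) and was the only called gene of 28 measured on the proteasome list. Ggh, a hydrolase of folate polyglutamates, differed by 1.20 ± 0.248 (adjusted p = 0.00454), and its second feature by 0.807 (adjusted p = 0.203). Dpcd differed by 0.792 ± 0.210 (adjusted p = 0.0456).

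The remaining called genes were named after their values were seen, and most had a small difference of the other sign in run B or D. Adh1c, an alcohol dehydrogenase, differed by 1.99 ± 0.489 (SE, adjusted p = 0.0286) and Lgals1, the galactose-binding lectin galectin-1, by 1.05 ± 0.230 (adjusted p = 0.00859). The other 6 that rose, among them the chloride channel family member Clic2, the glycosyltransferase B3galnt1 and the metalloproteinase Mmp23, differed by 0.693 to 1.27. Of these, Mocs2 and Anapc1 were higher in all 4 runs, and 2 further features of Anapc1, a subunit of the anaphase-promoting complex, stood at -0.552 and 0.0818. Ppp1r37, a regulatory subunit of protein phosphatase 1, differed by -1.59 ± 0.387 (adjusted p = 0.0286). The kinase gene Pim3, the polyamine acetyltransferase gene Sat1, the glutathione transferase gene Mgst2 and Stxbp3, which acts in vesicle fusion, differed by -0.922 to -0.630.

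Other genes of the insulin pathway and its known targets did not pass the test at 24 h. The signalling list of receptors, substrates, PI3-kinase and mTOR genes had 0 calls among 24 measured genes and a median of -0.0543. Pik3cd, the PI3-kinase gene called lower above, was not on this fixed list. Over all features 0.501% were called, and at that share lists of this size would hold few or no calls. The substrates Irs1 and Irs2 stood at -0.109 ± 0.258 and -0.163 ± 0.368 (SE). The list of FOXO and starvation genes had 0 calls among 22, of which 10 were positive and 12 negative, with a median of -0.155. Ulk1, a kinase that starts autophagy, stood at 0.967 ± 0.332 (adjusted p = 0.199), and Cdo1, a cysteine dioxygenase, stood at -1.28 ± 0.390 (adjusted p = 0.119), and was higher with insulin in 5 of 28 pairs. Glul, the glutamine synthetase, stood at -0.510 ± 0.234 (adjusted p = 0.444) and Ypel3 at -0.501 ± 0.269 (adjusted p = 0.587). Igfbp4, a binding protein that holds IGFs from their receptor, stood at 1.19 ± 0.374 (adjusted p = 0.145), and Igf1 at -0.707 ± 0.392 (adjusted p = 0.610). Thbd, the thrombin receptor thrombomodulin, stood at 1.27 ± 0.360 (adjusted p = 0.0790), higher in 21 of 28 pairs. Txnip stood at 0.167, Ddit4 at 0.424, Tagln at 0.569 and Pcna at -0.139, with adjusted p values from 0.744 to 0.970. For these genes the differences were not detectable at this spread, which does not show that insulin left them as they were. Ccnd1 was not among the features analysed here.

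In the fixed lists of mitosis, ribosome, ATF4, p53 and contractile genes described next no member was called, against 0.501% of all features. The signs of their differences are given as a description beside the 50.3% of all genes that were positive. Of 24 measured mitosis genes 21 differences were positive, the median was 0.388 and 0 were called. Their run medians were 0.0131, 0.0974, 1.49 and 0.144 for runs A to D, so the size lay in run C. Of 44 cytosolic ribosomal proteins 36 differences were negative, with a median of -0.116 and 0 calls, and of 17 ribosome biogenesis genes 15 were negative, with a median of -0.252. Of 21 ATF4 targets and amino acid genes 17 were negative, with a median of -0.248. Atf4 itself stood at -1.28 (adjusted p = 0.0736), with -1.90 in run A, 0.309 in run B, -3.56 in run C and 0.0386 in run D. It had the smallest adjusted p of all features in the F test among runs (0.000381). The amino acid transporters Slc7a1 and Slc38a2 were called in that test too, with adjusted p values of 0.0203 and 0.0167 and the same order of runs. Of 14 measured p53 targets 12 were positive, with a median of 0.414 and 0 calls. The contractile genes had 0 calls among 20 and a median of 0.0573. At 5 mM glucose and 24 h the list medians were 0.605 (mitosis), 0.0637 (ribosomal proteins), -0.219 (ribosome biogenesis), -0.165 (ATF4), 0.431 (p53) and -0.0228 (contractile). At 25 mM glucose and 6 h they were, in the same order, -0.805, -0.0681, 0.108, -0.277, 0.0521 and -0.00307.

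Whether the drugs altered the insulin effect was asked in several ways. A limma F test of any difference among the 7 drug conditions called 0 features (0%), with 503 under 0.05 unadjusted and a smallest adjusted p of 0.423. The insulin effect under 100 ng/mL rapamycin minus that in DMSO gave 0 calls (0%), with 296 unadjusted, and the same contrast for 1000 ng/mL paclitaxel gave 0 (0%), with 405. For Tm7sf2 the first of these contrasts was -1.94 (adjusted p = 0.999). Each rests on 4 arrays per group, and the median standard error was 0.810 array SDs, so effects of the size seen here could not be resolved. In DMSO cells alone limma called 0 features (0%), with 389 unadjusted, a smallest adjusted p of 0.130 and a median standard error of 0.573. Each unadjusted count in this paragraph lay below a share of 0.05 of all features, the share expected with no effect. Of the 58 called features, 41 had the same sign in all 7 conditions, and 17 had the other sign in at least 1. In DMSO, the condition without drug, 3 of the 17 had the other sign: Irf7, Laptm4a and a feature with no gene symbol. Col1a2 stood at -0.339 with 0.01 ng/mL rapamycin and -0.0025 with 0.01 ng/mL paclitaxel, against 1.28 to 2.63 in the other 5 conditions.

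Glucose was compared through the cells held in 5 mM glucose, which were measured on separate arrays of the same runs. The insulin effect at 25 mM minus that at 5 mM gave 0 calls by limma (0%), with 384 features under 0.05 unadjusted. That is below the share of 0.05 expected with no effect. At 5 mM glucose alone 67 features were called (0.579%). All 58 features called at 25 mM had the same sign at 5 mM, against 60.8% of all features, and 22 of them (37.9%) were called there as well. The 5 mM difference was 0.79 of the 25 mM difference at the median. The 58 were chosen by their differences at 25 mM, so smaller differences elsewhere are expected from that choice. The ratio therefore does not measure an effect of glucose. Mgp differed by -2.17 at 25 mM and -1.81 at 5 mM. Fn1 differed by -1.21 at 25 mM and -1.19 at 5 mM, and Dbi by 1.14 at 25 mM and 1.09 at 5 mM. By run, 57 of the 58 features lay on the called side at 5 mM in run A, 32 in run B, 56 in run C and 33 in run D. Across all features the run profiles of insulin at the 2 glucose levels correlated at 0.27 in run A, -0.074 in run B, 0.532 in run C and -0.11 in run D, as a description over genes that share arrays of 1 run. Igfbp4, not called at 25 mM, differed by 2.01 at 5 mM, and its difference between the glucose levels was not called.

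**Figure D4:**
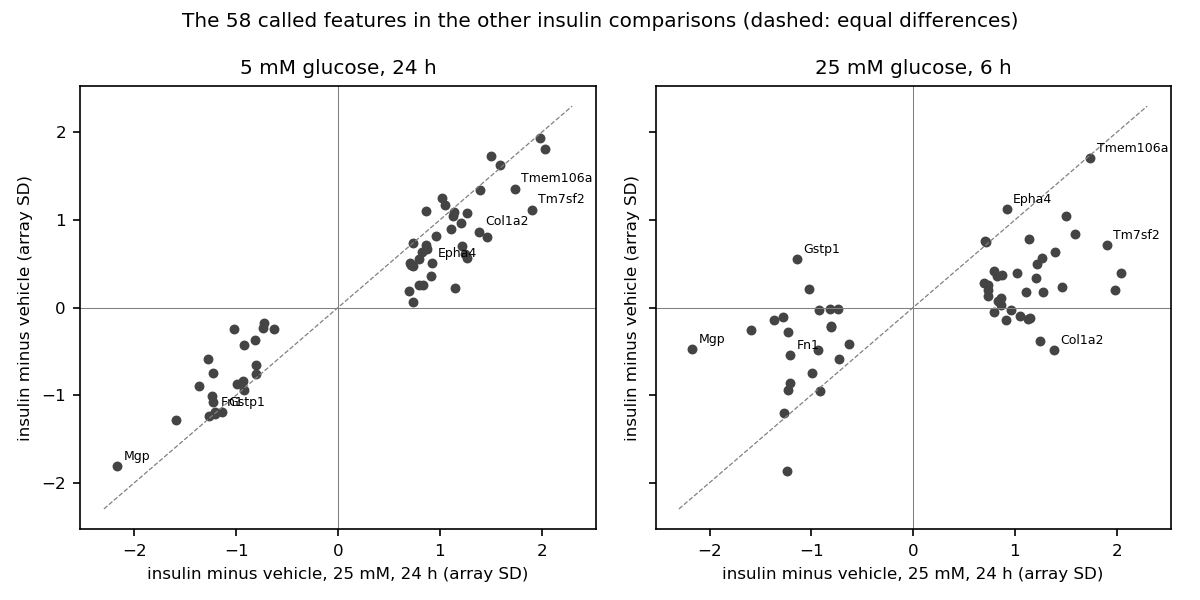
Difference between insulin and vehicle in array SDs for the 58 features called at 25 mM glucose and 24 h (horizontal axes), set against 5 mM glucose at 24 h (left) and 25 mM glucose at 6 h (right). Each point is a feature and the dashed line marks equal differences. At 5 mM all 58 lie on the same side of 0, and at 6 h 48 do.

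Time was compared through the same treatment at 6 h, on other arrays of the same runs. At 6 h 123 features were called (1.06%). Of the 58 features called at 24 h, 48 had the same sign at 6 h (82.8%, against 53% of all features) and 7 were called there (12.1%). The 58 were chosen at 24 h, so smaller differences at 6 h are expected from that choice. Tmem106a differed by 1.74 at 24 h and 1.71 at 6 h. Mgp differed by -2.17 at 24 h and stood at -0.474 at 6 h, and Col1a2 differed by 1.38 at 24 h and stood at -0.485 at 6 h. The insulin effect at 24 h minus that at 6 h was called for 7 features (0.0605%), none of them among the 58. Slc2a1, the glucose transporter GLUT1, scored -3.92 at the lowest, -0.707 at the median and 1.44 at the highest with insulin at 24 h, against -2.99, -0.384 and 1.98 with vehicle. At 6 h it scored -2.99, 0.385 and 4.79 with insulin, against -4.21, -1.15 and 2.49 with vehicle. The arms overlapped at both hours, and insulin lay higher at 6 h alone. Its difference was -0.449 at 24 h (adjusted p = 0.799, limma), with insulin higher in 14 of 28 pairs, and 2.05 at 6 h. The first minus the second was -2.50 ± 0.515 (SE, adjusted p = 0.0204, limma). All 4 runs were negative at 24 h, from -0.640 to -0.227, and all 4 were positive at 6 h, from 0.600 to 3.67.

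Of the other genes whose insulin effect changed with time, Pfkl is a phosphofructokinase of glycolysis. It stood at -0.0684 at 24 h (adjusted p = 0.976, limma), with 0.589 in run C, and differed by 1.24 at 6 h. The change was -1.30 ± 0.292 (adjusted p = 0.0283). Hilpda, a lipid droplet protein induced by hypoxia, stood at -0.655 at 24 h (adjusted p = 0.152) and differed by 0.774 at 6 h. Its change was -1.43 ± 0.298 (adjusted p = 0.0204), and in all 4 runs it was negative at 24 h and positive at 6 h. Cx3cl1, the chemokine fractalkine, went the other way. It stood at 0.779 at 24 h (adjusted p = 0.3145), with -0.144 in run B, and differed by -1.12 at 6 h (change 1.90 ± 0.436, adjusted p = 0.0367). Glud1, the mitochondrial glutamate dehydrogenase, stood at 0.510 at 24 h (adjusted p = 0.2105). At 6 h it differed by -0.645, with 0.0583 in run B (change 1.16 ± 0.251, adjusted p = 0.0283). The list of glycolysis and HIF-1 targets had a median of 0.377 at 24 h and 0.913 at 6 h. At 24 h 0 of its 22 measured members were called, against 0.501% of all features, and 14 were positive, against 50.3% of all genes. Pgk1, a kinase of glycolysis, stood at 1.06 (adjusted p = 0.225) at 24 h. At 6 h 2 arrays, insulin and vehicle with 0.01 ng/mL rapamycin in run A, were nearly identical (r = 0.99993), and 7 changes with time were called without them as well. Without runs A, C or D the fit called 0 changes with time, with 665, 607 and 895 features unadjusted, and without run B it called 24.

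**Figure D5:**
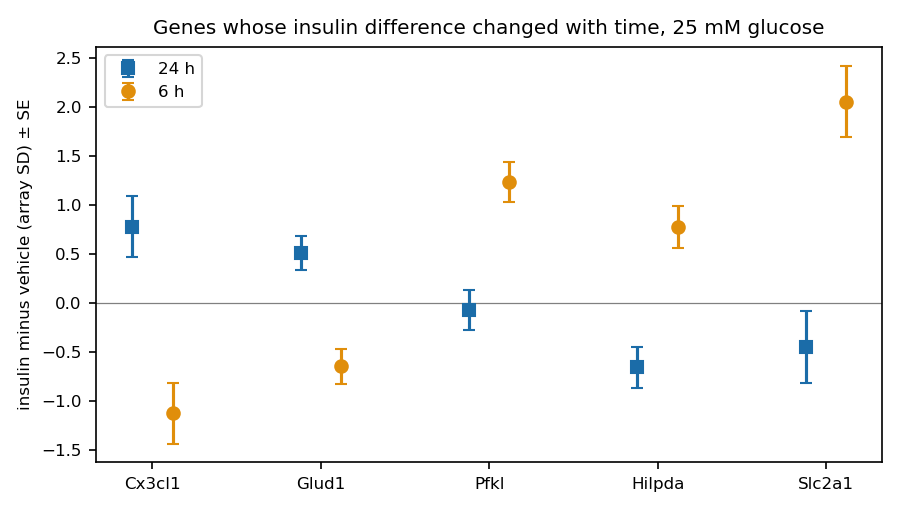
Difference between insulin and vehicle in array SDs, with its SE, at 24 h (squares) and 6 h (circles) in 25 mM glucose for the 5 named genes whose difference changed with time. Slc2a1, Pfkl and Hilpda lie below 0 at 24 h, Pfkl by less than its SE, and above it at 6 h. Cx3cl1 and Glud1 lie the reverse way. None of these genes was called at 24 h alone.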

How the data were processed

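Total RNA was labelled with Cyanine-5 and hybridised to 2-colour Agilent rat arrays beside Cyanine-3 pup reference RNA, per the labels. The authors deposited 1 table of standardized scores (11575 features, 224 arrays, 0 missing values). Per the series' design text, arrays were scanned with GenePix Pro 6 and processed in R 2.2.1 and Perl 5.8.1: loess normalization, a filter on intensity (30) and good data (70%), imputation from 3 nearest neighbours, removal of principal components linked to the runs, and standardization. Imputed values and flags cannot be told from measured ones, removal of run components lowers the spread that a run block can see, and standardization makes sizes relative to each array. The log base is not given in the sources used here, and the direction, cells over reference, is likely from the dyes. Of array pairs, 1.46% correlated below -0.3 (lowest -0.526), and with the sign turned every higher would read lower. The number of arrays limits the precision, and scanner depth is unknown. The labels and the design text differ on dish size, serum and quiescence, and 1 array title is cut short after "H", which was read as 25 mM glucose. The title of 1 compared vehicle array, of run A with 1 ng/mL rapamycin, carries the mark REP, whose meaning the title does not give.

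Features were named from the platform annotation (7473 with 1 symbol, 2 with several, 4100 with none, 6502 genes). Identifiers of 7461 were found in RefSeq (GRCr8) and 0 symbols changed. The first feature in the table stood for a gene in lists. All 224 arrays entered 1 linear model (limma 3.58.1, R 4.3.3) of 56 group means plus a run block (165 residual degrees of freedom, median residual SD 0.811), and eBayes. A feature was called at a two-sided Benjamini-Hochberg adjusted p under 0.05 over all 11575. The pairing of arrays by run rests on the labels, which call it a replicate run, and deviations from group means correlated at 0.0504 within a run on the compared arrays. Over all arrays the mean correlation between runs was -0.0128. On simulated data, 75% of shifts of 1 array SD and 99% of shifts of 2 were called (200 of 11575 features). The simulated arrays were independent, and each shift was the same in every run. In the data the called features had median sizes of 1.67, 0.488, 1.93 and 0.0921 array SDs in runs A to D. The simulated percentages therefore do not show how often an effect that differs between runs would be called.

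Named genes were the 15 largest rises and 15 largest falls called with 1 sign in all 4 runs (4 falls met this), up to 3 and 3 called members of each of 27 lists, 5 and 5 per interaction, and 22 genes whatever their result. Others were named after their values were seen. The comparison, the lists and the members were chosen with earlier results of these data known. Alternatives were other blocks, left-out runs and drug conditions, other scalings, robust and weighted fits, a stricter threshold, the 56 arrays alone, pairs or runs as units, each run alone, and fits without arrays that stood apart or were nearly identical, the last 3 chosen after seeing the data.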

Additional observations from a re-analysis of the deposited data

Results flagged for a closer look

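Chance flags about 1 in 20 sets of values, and 3 of 123 sets held 1 value far from the others. For Tm7sf2 the 6 drug doses lay at 1.23 to 1.99 array SDs and the DMSO condition stood apart at 3.50, with an SE of 1.01. In DMSO run A scored 5.44 with insulin and -4.42 with vehicle. Run B scored 1.46 and -0.641, run C 1.62 and -0.59, and run D 0.599 and 0.754. For the mitosis genes run C stood apart, with a median of 1.49 against 0.0131 to 0.144 in the other runs. For Pcna run D stood apart, at -0.495 against -0.0404 to -0.00341.

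The insulin effect differed between 24 h and 6 h at 25 mM glucose for 7 features, by the limma test of that difference. Slc2a1 had a difference of -2.50, Hilpda of -1.43 and Pfkl of -1.30, as the difference at 24 h minus that at 6 h. Cx3cl1 had a difference of 1.90 and Glud1 of 1.16. Of the features without a gene name here, probe 8480 had -2.32 and probe 14573 had 1.34.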

How the results depend on the processing

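The count of 58 features called was 43 without the replicate block, 91 with run by hour as the block, 56 to 59 with quantile or median scaling and robust eBayes, 88 with array weights and 83 without the 3 arrays of run B. It was 13 at an adjusted p under 0.01. Leaving out 1 run gave 0 to 180 calls: 0 without run A or C, 144 without B and 180 without D. Without 1 drug condition it was 34 (DMSO), 42, 13 and 22 (rapamycin 0.01, 1 and 100 ng/mL) and 37, 33 and 17 (paclitaxel 0.01, 1 and 1000 ng/mL), and with DMSO and the 0.01 ng/mL doses alone 0 (limma, 497 unadjusted). The share called higher was 62.1%, and reached 88.2% without 1000 ng/mL paclitaxel. The 56 arrays alone gave 44 (33 shared with the 58), the 28 pairs as a block 15 (13 shared), and the run as the unit 0. Each run alone gave 1 (A), 0 (B, 204 unadjusted), 215 (C, 34 shared) and 0 (D, 219 unadjusted). All 58 features kept their sign under these settings except in run B alone (50) and run D alone (35). The 19 genes named by the sign rule have 1 sign in every run by that rule, and all 19 missed the threshold without run A, without run C, with the run as the unit and in runs A, B or D alone. The 7 changes with time became 3 without the replicate block, 34 with run by hour, 15 with array weights, and 0 to 24 with 1 run left out. The glucose difference had 0 calls under every setting run for it. The cause of these changes was not tested. A median standard error of 0.216 array SDs limits which differences could be called, and single conditions rest on 4 arrays per arm.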
